A study of Mus musculus with 6 samples.

Results

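The Gnas locus of mouse chromosome 2 was examined through the CpG sites that reduced representation bisulfite sequencing had read there in kidney DNA. In this assay MspI cuts DNA at CCGG, short fragments are kept, and bisulfite conversion shows which cytosines were methylated, so that CpG-rich DNA is sampled. Sites were taken from a fixed stretch of the mm9 build, from before the start of Nesp to the end of Gnas, and had to be covered by at least 10 reads in every library. Of 943307 such sites in the genome, 290 lay in the locus, the first at chr2:174109678 and the last at chr2:174170875. Each library had between 9405 and 21676 covering reads over these 290 sites.

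The 6 libraries came from kidney cortex and outer medulla of male wild type C57BL/6J mice, and no source used here gives their ages. In the UUO saline group (2 libraries) the left ureter had been tied and cut 7 days earlier, which obstructs the kidney and leads to fibrosis, and the mice had received saline every day. In the UUO 5AZA group (2 libraries) the same operation was combined with 5AZA at 1 mg/kg/day in saline, injected into the abdominal cavity. The sham group (2 libraries) had surgery without ligation, and the labels mention no injection for it. Sham 1 belonged to the UUO experiment, whereas sham 2 was the sham of a kidney ischemia/reperfusion experiment and carries 48 h in its name. The labels do not say whether libraries of a group came from separate mice, so that every p-value here measures the spread between libraries. Whole tissue was used, and a change in the mix of cells cannot be told apart from a change of methylation within a cell type.

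Gnas is an imprinted locus with several alternative first exons that splice onto shared downstream exons. The Nesp promoter, which gives the secretory protein Nesp55, is methylated on the paternal allele. The promoters of Gnasxl, which gives the long G protein subunit XLalphas, of the antisense transcript Nespas and of the non-coding exon 1A are methylated on the maternal allele, and exon 1A and the Gnasxl/Nespas region carry this mark from the egg onward. The promoter of Gs-alpha, the subunit that couples hormone receptors to adenylyl cyclase, is unmethylated on both alleles, although in renal proximal tubule cells Gs-alpha comes mainly from the maternal allele. In tissue DNA an imprinted region therefore reads at an intermediate level, being methylated on a single parental allele.

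A pair of MspI fragments shows what the assay reads at either end of the locus, 1 before the most upstream and 1 before the most downstream of the 4 Gnas starts in the RefSeq promoter table. The sequences are of GRCm38.p6, on the plus strand, and the capitals mark CCGG at both fragment ends. On GRCm38.p6 they lie at chr2:174284176-174284272 (97 bases, 8 CpG) and chr2:174329757-174329843 (87 bases, 11 CpG).
Nesp start fragment: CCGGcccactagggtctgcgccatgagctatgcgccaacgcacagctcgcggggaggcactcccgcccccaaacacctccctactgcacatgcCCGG
Gs-alpha start fragment: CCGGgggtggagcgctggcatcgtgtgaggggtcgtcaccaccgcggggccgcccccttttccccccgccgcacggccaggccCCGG

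Both windows were placed on mm9 by laying their CpG positions over the sites of the files. All 8 file sites fell on a CpG of the first window and all 30 on a CpG of the last, where the next best position took 7 and 11. On mm9 both starts then lie at 174109821 and 174155507, 45686 bases apart. The 2 RefSeq starts between them, 2257 and 2238 bases before the last start on GRCm38.p6, could not be placed in this way (9 of 34 and 9 of 33 file sites at best). The motif CCGG, which reads the same on both strands, is present in 52.8% of 32851 RefSeq promoter windows of 300 bases, and 32.6% hold it at least 2 times.

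The inner CpGs of the Nesp start fragment read at intermediate levels and those of the Gs-alpha start fragment close to 0. The 6 CpGs of the Nesp start fragment outside CCGG averaged 31.8% and 50.7% in UUO saline, 42.0% and 33.1% in sham, and 41.7% and 8.33% in UUO 5AZA. The low value of UUO 5AZA 2 rests on 24 reads at most of these sites, with an exact 95% interval of 1.0% to 27.0% at a single site. The 9 inner CpGs of the Gs-alpha start fragment averaged 3.52% and 2.03% in UUO saline, 1.90% and 0.78% in sham, and 2.21% and 1.53% in UUO 5AZA. At 2 of them no methylated read was seen in any library, the CpG at 174155279 with 310 reads in all and the CpG at 174155331 with 250, which allow up to 0.968% and 1.2%. Intervals and limits cover counting error only, since reads without molecular identifiers are not independent molecules.

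The CpGs inside CCGG did not follow the inner ones. At the ends of the Nesp start fragment they averaged 86.5% and 75.2% over the 6 libraries, and at the ends of the Gs-alpha start fragment 82.0% and 56.6%. According to the labels' protocol the cut ends were filled in with methylated dCTP, and the part of this step in the end values was not tested. A site was treated as a candidate fragment end where its coverage equalled that of both neighbours together within 5%, or where it read at 30% or more in an otherwise unmethylated window. The locus held 25 such sites, which did not include the ends of the Nesp start fragment. Whether the highest sites of a region are also ends that the rule missed was not tested. Medians over sites, which such ends move little, are therefore given beside means over sites.

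Along the locus the measured sites formed blocks of very different level. Means over the 6 libraries lay between 30% and 60% at 27 of 36 sites of the Nesp start, 58 of 84 sites of the Gnasxl/Nespas region and 49 of 59 sites of exon 1A. The few sites between these regions read mostly higher. The CpG-rich cluster around the Gs-alpha start, with 83 sites, read near 0 apart from its candidate fragment ends, which were marked in part by their high level.

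**Figure D1:**
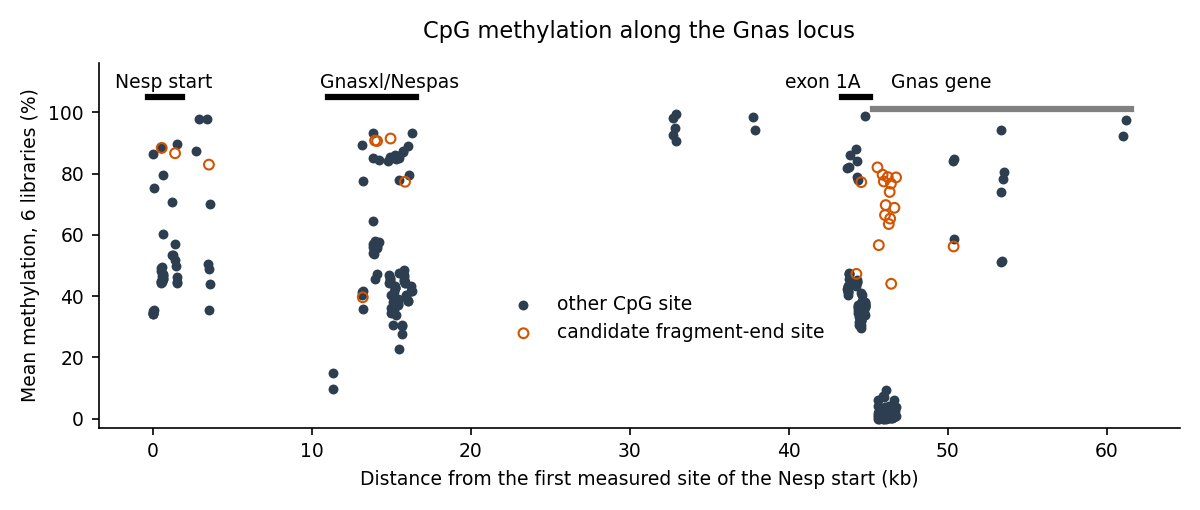
Mean methylation over the 6 libraries (percent, y axis) of each of the 290 CpG sites against the distance from the first measured site (kb, x axis). Filled points are all other sites, among them the ends of the Nesp start fragment, open points are the 25 candidate fragment ends and bars mark the sub-regions. Exon 1A and the Gs-alpha cluster are neighbours, but the former reads mostly between 30% and 50% and the latter below 10% apart from its candidate fragment ends. Those ends were marked in part by their high level.

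The Nesp start was measured at 36 sites (chr2:174109678-174111224). Its median over sites was 55.2% and 54.8% in UUO saline, 51.0% and 42.8% in sham, and 44.8% and 48.3% in UUO 5AZA. Both UUO saline libraries were above the other 4, and sham and UUO 5AZA overlapped. The lowest site, inside the Nesp start fragment at 174109726, averaged 34.0%, and the highest, at 174111224, 89.6%. The site just before this highest one, at 174111212, averaged 44.2%. Between Nesp and Gnasxl, 9 sites ranged from 35.4% at 174113240 to 97.9% at 174112623.

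The Gnasxl/Nespas region was measured at 84 sites (chr2:174120995-174125970). Its median over sites was 53.1% and 51.2% in UUO saline, 47.6% and 41.3% in sham, and 42.7% and 46.4% in UUO 5AZA. Here too both UUO saline libraries were the highest of the 6. Single sites ran from 9.58% at 174120995 to 93.4% at 174123520, and the nearby site at 174123532 averaged 56.0%. The 7 sites between Gnasxl and exon 1A (chr2:174142405-174147577) were nearly fully methylated in every library, with means over sites of 93.3% to 96.6%.

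Exon 1A, whose region is known to control the imprinted expression of Gs-alpha, was measured at 59 sites over 1131 bases (chr2:174153351-174154482). These sites lie 2156 to 1025 bases before the Gs-alpha start. The median over sites was 48.5% and 46.2% in UUO saline, 40.3% and 29.4% in sham, and 29.9% and 44.6% in UUO 5AZA. On this median UUO saline was above all other libraries, and the libraries within sham and within UUO 5AZA lay 10 or more points apart. The separation did not hold throughout exon 1A: over its 24 sites in chr2:174153001-174154000 the groups overlapped. The site means ran from 29.4% at 174154191 to 98.7% at 174154482. This highest site was the last measured in exon 1A, and the site just before it, at 174154479, averaged 36.3%.

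Past exon 1A no site passed the coverage minimum for 777 bases, and the level then dropped. The 69 sites of the cluster around the Gs-alpha start that were not candidate ends (chr2:174155270-174156423) averaged 1.70% and 1.66% in UUO saline, 2.03% and 1.18% in sham, and 2.24% and 1.84% in UUO 5AZA. No such site exceeded 9.43% on average. The 14 candidate ends in the same cluster averaged between 61.8% and 73.5%. The rule for candidate ends takes sites in part by their own level, so this split was partly fixed in advance. Over all 83 sites the medians of the 6 libraries ran from 0.0% to 2.38%, and the means from 11.4% to 14.2%. Within the gap, 2 sites with at least 5 reads everywhere, at 174155207 and 174155215, read between 0% and 33.3% from 6 to 19 reads, too few to place the border more closely. The 12 sites of the gene body (chr2:174160019-174170875) were methylated again, with site means from 51.3% to 97.4%, the highest at 174170875. Their median was 84.9% and 83.5% in UUO saline, 80.3% and 81.0% in sham, and 72.3% and 75.0% in UUO 5AZA, and no 2 groups overlapped.

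**Figure D2:**
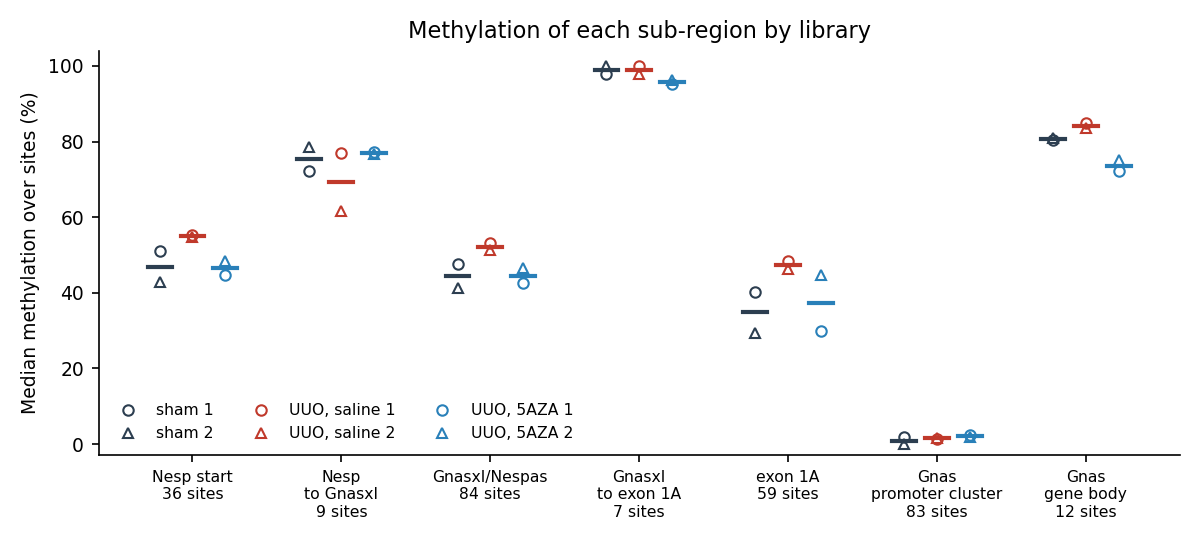
Median methylation over sites (percent, y axis) of each sub-region (x axis, with its number of sites) in the 6 libraries. Points are libraries and horizontal bars are the means of 2 libraries. The UUO saline libraries are above the other 4 at the Nesp start, Gnasxl/Nespas, exon 1A and the gene body, and all libraries are near 0 in the promoter cluster.

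Sites taken to be covered by the same reads, as inferred from like read numbers and not from the reads themselves, were compared within and between libraries. Neighbouring sites at most 220 bases apart whose read numbers differed by no more than 5% or 1 read in every library were joined into runs of at least 3 sites. The locus gave 41 runs. In the Nesp start, Gnasxl/Nespas and exon 1A, 26 runs held 110 sites. Sites of a run are taken to share their reads. Their SD within a library had a median of 3.06 points over these runs (2.91 in exon 1A, 3.13 in Gnasxl/Nespas and 13.5 in the 4 runs of the Nesp start). At the Nesp start, chr2:174109678-174109715, which includes an end of the Nesp start fragment, had SDs of 17.7 to 35.4. The run chr2:174111184-174111224, with the highest site of the region, had 19.5 to 25.6, and the others had 1.02 to 9.27. The median level of a run spanned 22.3 points over the 6 libraries at the median, from 9.80 to 47.8.

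Several runs were singled out after their values were seen, to show how far libraries differed. A run of 4 sites in Gnasxl/Nespas, chr2:174125458-174125493, read 57.2% and 66.2% in UUO saline, 41.3% and 36.4% in sham, and 41.0% and 36.8% in UUO 5AZA, from 50 to 83 reads. For the median read counts of the run, the exact 95% intervals were 45.3% to 67.5% and 53.7% to 77.2% in UUO saline. In sham they were 30.1% to 53.3% and 23.6% to 49.1%. The next run, chr2:174125513-174125538, gave 57.5% and 58.3% in UUO saline, 40.2% and 36.5% in sham, and 36.2% and 39.3% in UUO 5AZA. In both runs the UUO saline libraries were above the other 4.

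Other runs split the libraries of a group. In exon 1A, chr2:174153456-174153488 read 40.9% and 68.6% in UUO saline, 67.9% and 29.0% in sham, and 26.7% and 51.0% in UUO 5AZA, so that every group spanned more than 24 points. The run at chr2:174125111-174125150 read 12.8% in sham 2 and between 39.8% and 48.5% in the other 5 libraries. The interval of sham 2 there, for medians of 2 methylated and 19 covering reads, was 1.3% to 33.1%. At chr2:174125947-174125964 the 6 libraries covered 47.8 points, from 15.4% in sham 2 to 63.2% in UUO 5AZA 2.

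**Figure D3:**
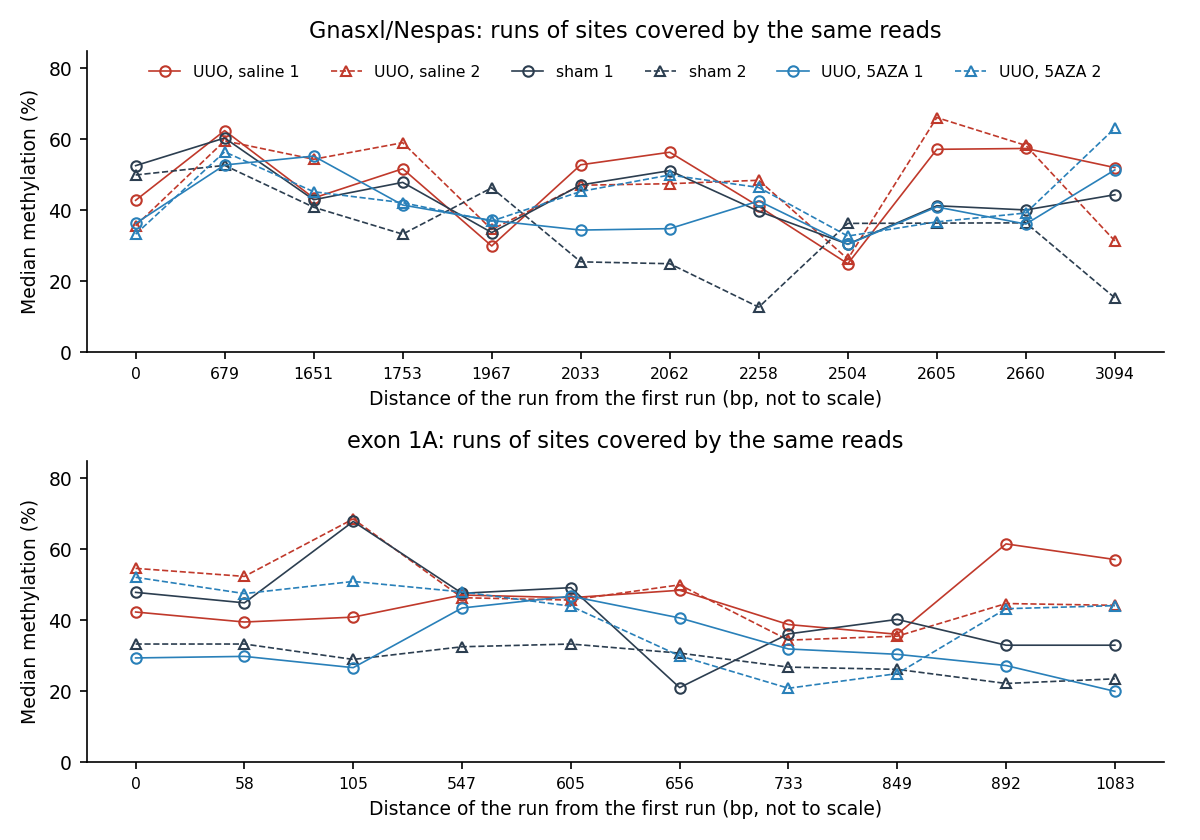
Median methylation (percent, y axis) of each run of sites, in order along Gnasxl/Nespas (top, 12 runs) and exon 1A (bottom, 10 runs). Sites of a run are taken from like read numbers to be covered by the same reads. The x axis gives the distance from the first run (bp, not to scale). Each line is a library. Lines cross often, and sham 2 is among the 2 lowest libraries in 9 of the 10 runs of exon 1A.

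The first comparison asked what obstruction with saline did against sham. The Nesp start, Gnasxl/Nespas, exon 1A and the gene body each read higher in both UUO saline libraries than in both sham libraries, but no window of the locus passed the test. Of all 1 kb windows of the genome, an unlike unit, 32.3% had both UUO saline libraries above both sham libraries. As means over sites, exon 1A read 52.6% ± 0.40 (SD, n = 2) against 41.1% ± 8.0, a gap of 11.5 points, which was 5.85 without sham 2, 17.2 without sham 1 and 5.34 at a coverage minimum of 20. It was 6.52 points at the Nesp start, 5.81 in the gene body and 5.47 in Gnasxl/Nespas, where 1.89 remained without sham 2 and 9.05 without sham 1. In the gene body it was 3.81 without sham 1 and 0.687 with reads pooled over sites. With the bounds moved inward by 1 kb the gap was 5.94 points in exon 1A and 1.44 in Gnasxl/Nespas. The order of the 4 regions changed with these settings. The Gs-alpha cluster without its candidate ends differed by 0.075 points, and its libraries overlapped. With 2 libraries against 2 an exact two-sided permutation test cannot go below p = 0.33, the value reached by these 4 regions.

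For the test across the genome, methylated and unmethylated reads were summed over windows of 1 kb with at least 3 sites. The locus held 15 of 89813 such windows. None of the 15 passed an adjusted p of 0.05 in edgeR's quasi-likelihood test, against 0.0501% of all windows (0.0445% called higher and 0.00557% lower), and 4 had an unadjusted p under 0.05, against 10.4%. With limma, 0 of all 89813 windows passed the adjusted threshold, and 2 of the 15 had an unadjusted p under 0.05, against 10.9%. In 7 of 15 windows both UUO saline libraries were above both sham libraries, against 32.3% of all windows, and in 1 they were below, against 9.73%.

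The window with the smallest p lay in Gnasxl/Nespas (chr2:174125001-174126000, 34 sites). It read 56.8% and 57.8% in UUO saline, 48.8% and 41.2% in sham, and 53.6% and 54.3% in UUO 5AZA. UUO saline was 12.3 points above sham (edgeR unadjusted p = 0.000207, adjusted p = 0.106), with the adjusted p between 0.0285 and 0.516 over the alternatives. It passed the threshold only when sham 1 was left out (adjusted p = 0.0285). A neighbour in the same region went the other way: chr2:174122001-174123000 (7 sites) read 51.3% and 48.1% in UUO saline against 59.2% and 55.2% in sham (edgeR adjusted p = 0.59). In exon 1A, chr2:174154001-174155000 (35 sites) read 48.1% and 45.6% in UUO saline against 42.8% and 32.6% in sham. The gap was 9.14 points (edgeR adjusted p = 0.286), or 4.01 without sham 2 and 14.3 without sham 1. The other window of exon 1A, chr2:174153001-174154000 (24 sites), read 52.32% and 59.98% in UUO saline and 57.46% and 41.91% in sham. It read 44.67% and 56.96% in UUO 5AZA, and its libraries overlapped in every comparison. UUO saline was 6.46 points above sham there (edgeR adjusted p = 0.69). At the Nesp start, chr2:174110001-174111000 (20 sites) read 61.4% and 59.6% in UUO saline, 58.4% and 50.2% in sham, and 48.5% and 56.4% in UUO 5AZA. UUO saline was the highest there, 6.21 points above sham (edgeR adjusted p = 0.55), or 2.11 without sham 2 and 10.31 without sham 1.

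The next question was how 5AZA-treated obstructed kidneys compared with saline-treated ones. A single window of the gene body was lower with 5AZA past the threshold, and 13 of the 15 windows had a difference below 0, against 79.1% of all windows. That window, chr2:174163001-174164000 with 6 sites and at most 332 reads in a library, read 81.5% and 78.9% in UUO saline, 69.7% and 69.0% in sham, and 65.7% and 66.0% in UUO 5AZA. The difference of UUO 5AZA from UUO saline was -14.4 points (edgeR adjusted p = 0.0497), which is close to the threshold and was lost under every alternative but a replicate block, with adjusted p between 0.0458 and 0.208. The difference itself lay between -19.2 and -13.05 points over these alternatives. UUO saline was 10.9 points above sham there (edgeR adjusted p = 0.287). The other window of the gene body, chr2:174160001-174161000 (4 sites), read 73.5% and 65.75% in UUO saline, 62.9% and 77.3% in sham, and 62.5% and 66.4% in UUO 5AZA. Its libraries overlapped in every comparison.

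The call of 1 window in 15 stands against 1.55% of all windows called lower. In 8 of 15 both UUO 5AZA libraries were below both UUO saline libraries, against 49.1% of all windows, and in 0 they were above, against 5.69%. None was called higher, against 0.00445% of all windows. An unadjusted p under 0.05 was found in 4 of 15 windows, against 23.2%. With limma 0 windows of the genome passed the adjusted threshold, and 1 of the 15 had an unadjusted p under 0.05, against 20.5%. The locus thus lay near the background of the genome in the share of windows without overlap.

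As means over sites, the difference of UUO 5AZA from UUO saline was -9.92 points in exon 1A (42.6% ± 6.34 against 52.6% ± 0.40, SD, n = 2), -8.96 at the Nesp start, -8.91 in the gene body and -2.86 in Gnasxl/Nespas. As medians over sites it was -10.07 in exon 1A, -8.45 at the Nesp start, -10.58 in the gene body and -7.60 in Gnasxl/Nespas. Libraries of both groups did not overlap in any of these 4 regions, at the smallest exact permutation p of 0.33. As means over sites they did not overlap between Gnasxl and exon 1A (-2.22 points) or over the whole Gnas gene (-0.602 points) either. Of all 1 kb windows, an unlike unit, 49.1% had both UUO 5AZA libraries below both UUO saline libraries. In exon 1A the difference was -5.44 points without UUO 5AZA 1 and -14.4 without UUO 5AZA 2, and in Gnasxl/Nespas it was -1.64 without UUO 5AZA 1. With the bounds moved inward by 1 kb the difference in exon 1A was -5.18 points, and with pooled reads that in the gene body was -4.29. The window with the largest gap, at the Nesp start (chr2:174109001-174110000, 8 sites), read 42.0% and 59.0% in UUO saline, 49.3% and 41.7% in sham, and 49.1% and 21.7% in UUO 5AZA. Its difference of -15.1 points (edgeR adjusted p = 0.261) rested on UUO 5AZA 2: without that library it was -1.43 points, and without UUO 5AZA 1 the adjusted p was 0.0369. In exon 1A, chr2:174154001-174155000 read 37.8% and 39.1% with 5AZA, a difference of -8.37 points from UUO saline (edgeR adjusted p = 0.108). In the other window of exon 1A, chr2:174153001-174154000, the difference was -5.33 points, and the libraries overlapped (edgeR adjusted p = 0.52). In the cluster at the Gs-alpha start UUO 5AZA was above UUO saline without overlap, by 0.361 points without the candidate fragment ends and 0.599 with them. In its fullest window (chr2:174155001-174156000, 53 sites, with its candidate fragment ends) the difference was 0.57 points, and the libraries overlapped. Of the windows between the start regions, chr2:174113001-174114000 (7 sites) read at an intermediate 56.1% to 62.8% over the 6 libraries. It differed by -0.88 points between UUO 5AZA and UUO saline (edgeR adjusted p = 0.926). The nearly fully methylated chr2:174142001-174143000 (5 sites, 92.2% to 96.6%) differed by -2.85 points (edgeR adjusted p = 0.271).

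The remaining comparison set UUO 5AZA against sham, which differ in both the operation and the injection. Differences were of both signs, 8 windows above 0 and 7 below with a median of 0.72 points, where 39.1% of all windows were above 0 and the median was -1.12. No window of 15 was called by edgeR, against 0.00111% of all windows, and 3 had an unadjusted p under 0.05, against 14.7%. With limma, which called 0 windows of the genome, 1 of the 15 had an unadjusted p under 0.05, against 13.8%. Both UUO 5AZA libraries were above both sham libraries in 3 windows and below in 3, against 12.9% and 31.9% of all windows. The 3 largest differences were of both signs, -12 points in chr2:174122001-174123000 (edgeR adjusted p = 0.251) and 8.95 points in chr2:174125001-174126000 (edgeR adjusted p = 0.154), both in Gnasxl/Nespas, and -10.15 points at the Nesp start in chr2:174109001-174110000 (edgeR adjusted p = 0.582). The last was 3.55 points without UUO 5AZA 2, and the second 5.13 points without sham 2. Exon 1A differed by 1.59 points, and its libraries overlapped. These comparisons share libraries, so that a high UUO saline or a low sham library enters 2 of them.

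**Figure D4:**
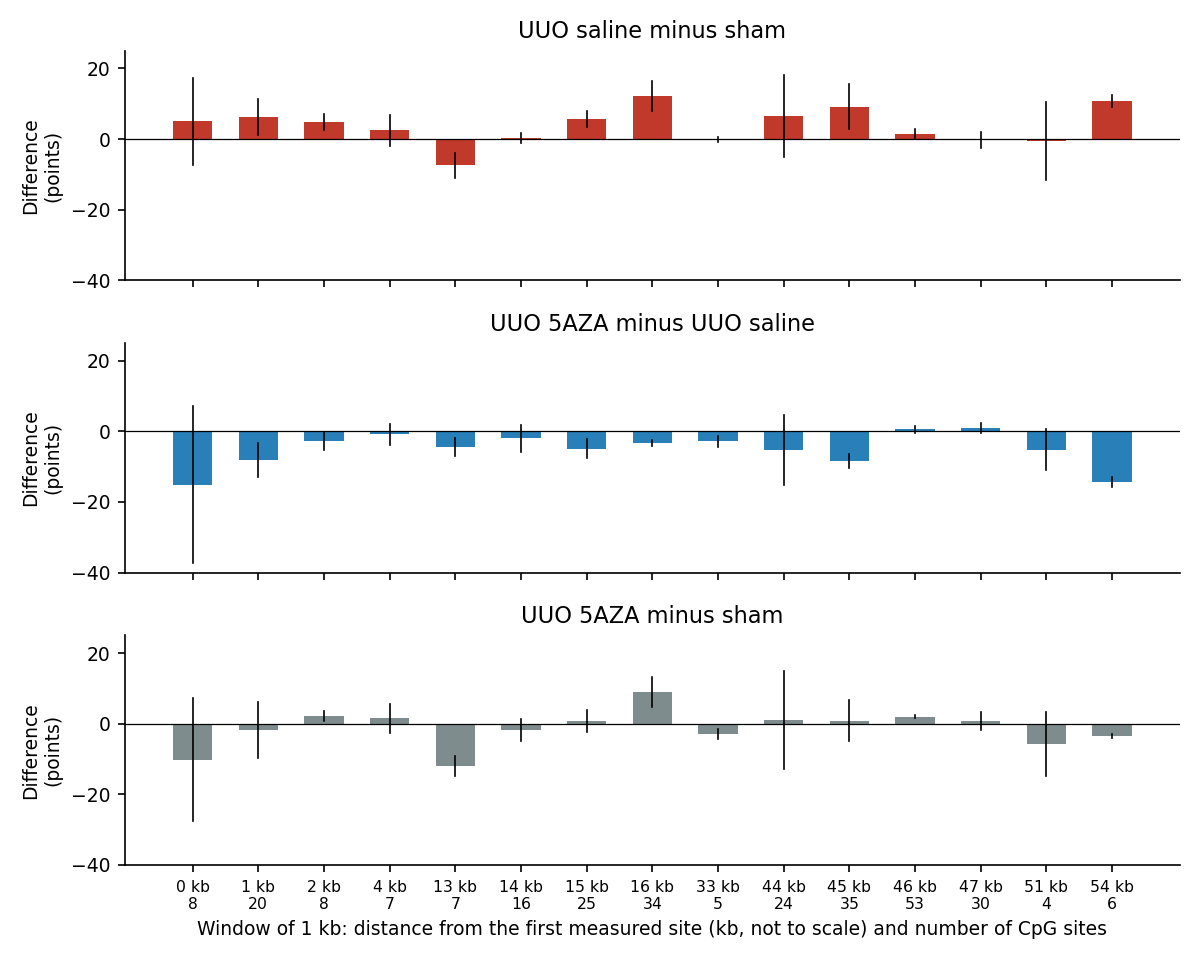
Difference in methylation (percentage points, y axis) of each of the 15 windows of 1 kb in the 3 comparisons, with the distance from the first measured site and the number of CpG sites on the x axis. Bars are differences between group means of 2 libraries, and lines run from the lowest to the highest difference between single libraries. In the 5AZA comparison with saline 13 windows are below 0. The whole line lies below 0 in 8 of the 15, and it crosses 0 in the others, the first window among them.

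Set beside the genome, the 15 windows had median differences of 4.87 points between UUO saline and sham, and -4.50 between UUO 5AZA and UUO saline, where all windows had 1.13 and -2.70. A closer match is CpG-dense DNA of the same level. Of the windows with at least 20 sites and a mean of 40% to 70%, 5 lay in the locus and 158 elsewhere. UUO saline was above sham in 5 of 5 in the locus (median 6.46 points) and in 118 of 158 elsewhere (median 4.29). UUO 5AZA was below UUO saline in 5 of 5 (median -5.33) and in 123 of 158 (median -3.87). The distance between the libraries of a group was 8.20 points in sham, 1.95 in UUO saline and 3.37 in UUO 5AZA at the median of the 5 locus windows, and 4.55, 2.81 and 3.06 elsewhere. Over all 15 locus windows the distance between both sham libraries was 3.91 points at the median.

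The runs gave the same comparison along each region. As differences of group means, all 10 runs of exon 1A were higher in UUO saline than in sham (median 6.75 points, from 2.58 to 25.5) and all 10 were lower in UUO 5AZA than in UUO saline (median -9.16, from -18.6 to -0.64). Without sham 2 the first count was 6 of 10, with a median of 0.53 points, and without UUO saline 2 it was 9. The second was 7 of 10 without UUO 5AZA 1 and 9 without UUO 5AZA 2. The extremes of 25.5 and -18.6 points lay in thinly covered runs, chr2:174154243-174154282 and chr2:174154434-174154482. Median reads there were 13 and 14 in UUO saline 1, 18 and 17 in sham 2, and 11 and 10 in UUO 5AZA 1. All 4 runs at the Nesp start had the same signs, and 3 of 4 without sham 2 or UUO saline 2 in the first comparison and without UUO 5AZA 2 in the second. In Gnasxl/Nespas 9 of 12 runs were higher in UUO saline than in sham, with a median of 12.74 points that was 1.78 without sham 2, and 8 of 12 were lower with 5AZA. Runs were not formed over the genome. Of all its 1 kb windows, an unlike unit, 68.2% were higher in UUO saline than in sham and 79.1% lower in UUO 5AZA than in UUO saline. Runs of a region come from the same libraries and are not replicates of a condition.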

How the data were processed

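Kidney DNA of 6 libraries was measured by reduced representation bisulfite sequencing. The authors deposited, per site, counts of covering and methylated reads and the methylated fraction, which equals methylated over covering reads in every row. The submitters' processing notes name Bowtie and mm9, without a version. No source used here describes trimming, methylation calling or filtering. Files have no header, so column meanings come from the values. Libraries held 37728517 (sham 2) to 76730132 (UUO saline 1) covering reads, with a median of 21 to 48 per site.

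Levels are percent methylated per site, averaged per sub-region and library, with an exact two-sided permutation test. Windows of 1000 bp were tested on counts with edgeR 4.0.16 (glmQLFit, glmQLFTest, R 4.3.3) on all 6 libraries (common dispersion 0.00632), with Benjamini-Hochberg adjustment over 89813 windows. The edgeR script was tested on simulated data. Intervals are exact Clopper-Pearson 95% ones. For a run they use the medians over sites of methylated and covering reads, cut to whole numbers, whereas its level is the median of site levels. Tables used Python 3.11.15, numpy 2.4.6, pandas 2.3.3 and scipy 1.17.1.

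Windows named in the text are those past the threshold, the 3 largest differences per comparison and the window with most sites per sub-region. Sites named are the extremes per sub-region. The members, sub-regions and lists were chosen with earlier results of these data known. Alternatives were coverage minimums of 5 and 20, limma 3.58.1, other windows, bounds moved inward, pooled reads, no fragment ends, a replicate block, and each library left out in turn. The median over sites, the split of the Gnas gene into cluster and body, and run differences without each library were added after the data were seen.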

Additional observations from a re-analysis of the deposited data

How the results depend on the processing

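Over 294 recomputed region differences 269 kept their direction, and 10 of 27 differences reversed under at least 1 alternative. The gaps of the Nesp start, Gnasxl/Nespas, exon 1A and the gene body between UUO saline and sham, and between UUO 5AZA and UUO saline, kept their direction under every alternative run, although their size did not: exon 1A was 5.34 points (UUO saline minus sham) at a coverage minimum of 20, and Gnasxl/Nespas 3.56 (UUO saline minus sham) and -1.57 (UUO 5AZA minus UUO saline) at a minimum of 5. Leaving out 1 library could not reverse these gaps, because the libraries of the groups compared did not overlap there. Their direction under those settings was thus fixed in advance. Leaving out the most deeply covered sites did not change these gaps at all. The cause of the reversals was not tested. For UUO saline minus sham, Nesp to Gnasxl was -0.129 with bounds moved inward, -6.06 as a median over sites and -2.69 to 3.603 (-0.109 without sham 2) when 1 library was left out. Gnasxl to exon 1A was 0.0 as a median and -0.316 to 0.62 with 1 library left out (-0.135 without UUO saline 2), and the Gnas gene was -0.005 with pooled reads. For UUO 5AZA minus UUO saline, Nesp to Gnasxl was 2.96 with pooled reads, 7.75 as a median and -5.13 to 1.16 with 1 library left out, and the Gnas gene was 1.25 with pooled reads and 0.474 as a median. For UUO 5AZA minus sham, Nesp to Gnasxl was 2.79 at a coverage minimum of 20, 3.77 with pooled reads and 1.69 as a median. Gnasxl/Nespas was -1.24 with bounds moved inward and -0.977 to 6.19 with 1 library left out. Gnasxl to exon 1A was 3.05 and 0.549 at coverage minimums of 5 and 20. Exon 1A was -1.45 at a minimum of 20 and -4.07 (without sham 2) to 7.25 with 1 library left out (-2.89 without UUO 5AZA 2), and the whole locus -1.62 to 3.66 (-0.03 without UUO 5AZA 2).

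Without sham 1, 1 window was called between UUO saline and sham, against 0 without any other library, while over the genome 40 windows were called without sham 1, and 0, 7 and 1 without UUO saline 1, UUO saline 2 and sham 2. Between UUO 5AZA and UUO saline 0 locus windows were called without candidate ends or with limma, where 0 were called in the whole genome. There were also 0 at coverage minimums of 5 and 20 (1354 and 850 in the genome), without the deepest sites (1205), with only the 4 libraries (173), at 5 sites per window (1017) and in windows of 500 bp (413). Leaving out 1 library gave 0 to 1 in the locus (0 to 1180 in the genome), the 1 being chr2:174109001-174110000 without UUO 5AZA 1. The following windows, named by their first base, reversed with 1 library left out. For UUO saline minus sham the ranges were -3.54 to 13.5 (174109001), -0.21 to 5.08 (174113001) and -0.58 to 0.29 (174142001, with 0.20 without sham 1). For UUO 5AZA minus UUO saline they were -2.53 to 0.76 (174113001, with 0.54 without UUO 5AZA 2) and -0.40 to 1.54 (174155001). For UUO 5AZA minus sham they were -23.9 to 3.55 (174109001), -5.93 to 2.27 (174110001, with 2.10 without UUO 5AZA 1), -1.09 to 4.20 (174113001) and -4.35 to 5.90 (174154001, with -4.37 at a coverage minimum of 20). A lone library in a group is assumed to vary like the others.

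Only UUO saline and UUO 5AZA carry replicate numbers, and with 2 pairs these are shared numbers only (correlation of deviations 0.118 over 29804 windows). With the replicate block 1 locus window was called, as without it (chr2:174163001-174164000, edgeR adjusted p = 0.0458), while calls over the genome went from 1396 to 2321.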

Other observations

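Outside the locus and chromosome 18, 3 windows (1 kb, 20 or more CpG sites) had levels closest to those of exon 1A over the 6 libraries, by Euclidean distance among 10927 windows. They are chr8:124860001-124861000 (77 sites, distance 7.02 points), chr4:133913001-133914000 (31 sites, 7.65 points) and chr5:111848001-111849000 (31 sites, 8.78 points). The first read 53.2% and 54.1% in UUO saline, 41.9% and 39.8% in sham, and 38.1% and 48.8% in UUO 5AZA. Both UUO saline libraries were the highest of the 6 in all 3 windows, a pattern that the choice by likeness fixes. No gene names are given for them, since no annotation of mm9 was used here.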
